A study of Mus musculus with 4 samples.

Results

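Interferons are signalling proteins that cells release on sensing foreign or misplaced nucleic acid. Type I interferons bind Ifnar1 and Ifnar2, the kinases Jak1 and Tyk2 pass the signal on, and a factor that holds Stat2 and Irf9 binds the interferon-stimulated response element (ISRE) in front of the genes it induces. In the heart, macrophages and other myeloid cells are known as strong responders after infarction. The 10 genes described here, Ifit1, Ifit2, Ifit3, Ifi27l2a, Isg15, Irf7, Rsad2, Oasl2, Bst2 and Usp18, are widely used readouts of this response. They were chosen by symbol, and all 10 are among the 32285 genes of the count tables.

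The data comprised 4 droplet libraries of left ventricle from male wild-type C57BL/6J mice, 1 per condition: young sham and young I/R (3 to 5 months), and aged sham and aged I/R (24 to 26 months). I/R stands for 45 min of ischemia by surgery on the left anterior descending artery followed by 24 h of reperfusion. The labels give the sham samples as unaltered and the molecule as nuclear RNA, whereas the study's methods describe sham operations and suspensions of single cells, and the number of mice per library was not given in the sources used here. With 1 library per condition no test between conditions was possible, so that an effect of age or of I/R cannot be told apart from a difference between animals or preparations, and all intervals below are 95% intervals for counting error only.

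The libraries held 25836175 to 66767829 unique molecular identifiers (UMIs) over 91124 to 102883 barcodes, with a median of 244 to 675 UMIs per barcode. Levels are given as CPM, the UMIs of a gene per 1000000 UMIs of its library summed over all barcodes, and a lower CPM in such a sum can be fewer cells of a type or less RNA per cell, which cannot be told apart. Any pair of libraries shared 2366 to 2843 barcode sequences, at most 2.83% of a library. Libraries also differed in composition: the transcript Gm42418 took 11.5% to 19.4% of the UMIs and the median gene had a log2 ratio of -0.51 between the young I/R and young sham libraries. A second scaling, by the median over genes of their ratios between libraries (gene-wise scaling), shifts all log2 ratios of a comparison alike. The shift is 0.47 for I/R over sham in young hearts, -0.09 for I/R over sham in aged hearts, 0.15 for aged over young sham and -0.41 for aged over young I/R. Where a gene has 4 values below, young comes before aged and, at each age, sham before I/R.

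The promoters are shown first because they hold the letters by which interferon signalling is known to reach such genes. RefSeq (GRCm38.p6) gave the 250 bases before and 50 bases after the start for 8 of the 10 genes, and Ifi27l2a and Usp18 had no entry. The ISRE core was searched as GAAANNGAA on both strands (TTCNNTTTC on the other strand). Of 32851 promoters in the table, 8.56% held at least 1 match, 0.624% at least 2 and 0.0639% at least 3, with overlapping matches counted. Among the 8 genes, 5 held a match: 3 matches each in Ifit1, Ifit3 and Isg15, 2 in Bst2 and 1 in Rsad2. No match stood in the windows of Ifit2, Irf7 and Oasl2, which says only that these letters were not in these windows. The stretch of 60 bases around the match nearest to the start is given for each of the 5 genes, 5′ to 3′ on the strand of the gene, with matches in capitals.
Ifit1: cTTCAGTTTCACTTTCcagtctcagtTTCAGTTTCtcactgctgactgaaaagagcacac
Ifit3: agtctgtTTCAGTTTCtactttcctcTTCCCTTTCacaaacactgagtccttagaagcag
Isg15: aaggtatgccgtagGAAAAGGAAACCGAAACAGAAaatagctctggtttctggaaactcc
Rsad2: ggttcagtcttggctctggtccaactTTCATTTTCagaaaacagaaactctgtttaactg
Bst2: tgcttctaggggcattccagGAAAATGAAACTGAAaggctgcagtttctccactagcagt

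These stretches lie at chr19:34640779-34640838 on the plus strand (Ifit1), chr19:34583401-34583460 on the plus strand (Ifit3), chr4:156200851-156200910 on the minus strand (Isg15), chr12:26456538-26456597 on the minus strand (Rsad2) and chr8:71537563-71537622 on the minus strand (Bst2). The match nearest to the start began 66 bases before it in Isg15 (-66), at -84 in Ifit1, at -102 in Ifit3, at -119 in Rsad2 and at -124 in Bst2. In Isg15 and Bst2 all matches overlap and form 1 run, as do 2 of the 3 in Ifit1. The gamma-activated site of the response to interferon gamma, TTCNNNGAA, was found in 8.30% of all promoters and in those of Ifit2 and Bst2, where in Bst2 it overlaps the first ISRE match. The stretch of Ifit3 was the same in all 60 bases as that of its neighbour Ifit3b. Matches are a description of letters and no measurement of binding.

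All 10 genes had their highest level in the aged sham library and their lowest in the young I/R library. The sum of the 10 genes was 156 CPM (interval 151 to 161, 4037 UMIs) in young sham, 86.3 CPM (83.4 to 89.2, 3422 UMIs) in young I/R, 272 CPM (267 to 277, 11244 UMIs) in aged sham and 144 CPM (141 to 147, 9601 UMIs) in aged I/R. In this sum the aged I/R library thus stood near the young sham level and not near the young I/R level. Among the 10 genes Rsad2 went otherwise, with 30.7 CPM in aged I/R, 40.8 CPM in young sham and 23.8 CPM in young I/R. Of 17699 genes with at least 20 UMIs over the 4 libraries, 12.3% were highest in aged sham and lowest in young I/R. With gene-wise scaling 9 of the 10 genes kept that order and 8.77% of all genes had it, and the exception was Rsad2, which then came out lower in aged I/R than in young I/R. Under this scaling young I/R did not differ beyond counting error from aged I/R for Rsad2 and Bst2. For Ifi27l2a it did not differ so from young sham. Ifi27l2a took 21.9% to 28.6% of the summed UMIs and Rsad2 21.3% to 27.6%, so the sum rests to a large part on these 2 genes.

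**Figure D1:**
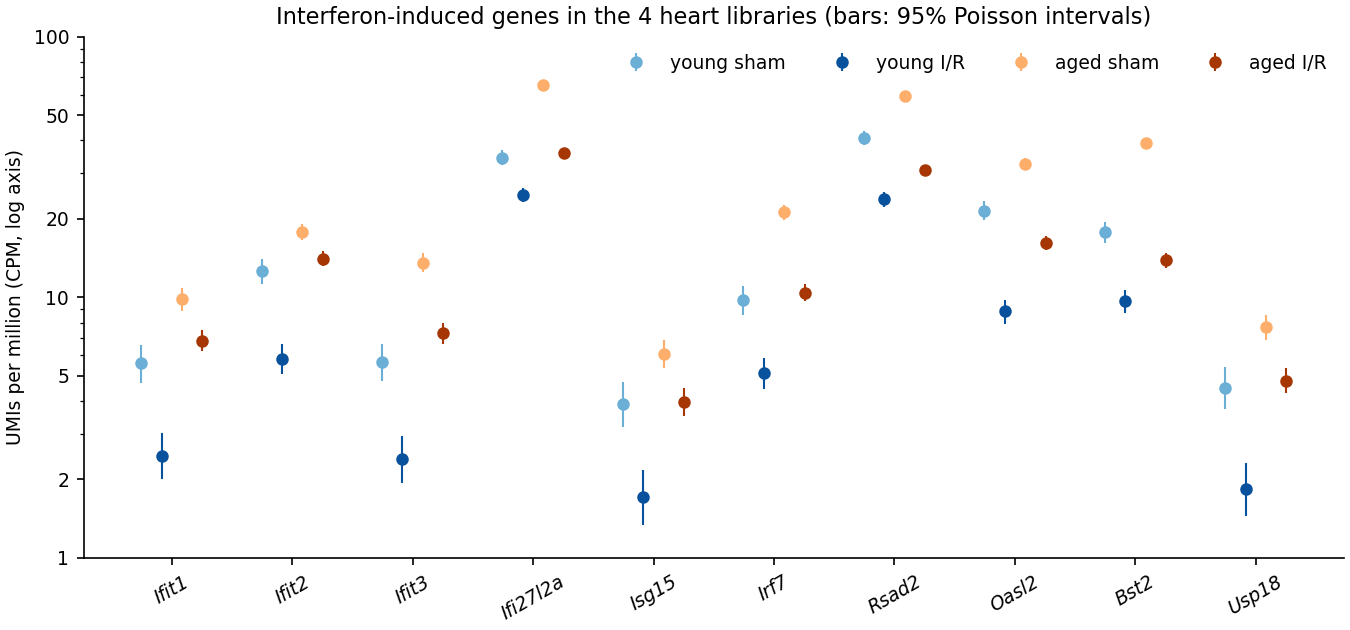
Level of each of the 10 genes in CPM (log axis) in the 4 libraries, with 95% Poisson intervals that cover counting error only. In each gene the aged sham point is the highest and the young I/R point the lowest, and the young sham and aged I/R points lie between them.

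The Ifit proteins bind viral RNA and hinder its translation. Their genes are neighbours on chromosome 19, where Ifit2, Ifit3 and Ifit1 span 99.3 kb of GRCm38 from 34550694 to 34650009 on the plus strand. Ifit1 had 5.57, 2.47, 9.82 and 6.81 CPM. Ifit2 had 12.6, 5.80, 17.8 and 14.1 CPM. Ifit3 had 5.65, 2.39, 13.6 and 7.28 CPM. The young I/R value was below and the aged sham value above all others beyond the counting intervals in each of the 3 genes, while young sham and aged I/R overlapped for Ifit1 and Ifit2 and stood apart for Ifit3.

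Ifit3 has a near-identical copy, Ifit3b, and 95% of the last 400 bases of the Ifit3 transcript were matched by identical bases in Ifit3b, so reads may have been split between the 2 genes or dropped. Ifit3b had 1.08, 1.03, 4.50 and 2.46 CPM, and the 2 genes together had 6.73, 3.43, 18.1 and 9.74 CPM. The order of the libraries was unchanged in this sum, but the ratio between the young libraries was -0.97 on the log2 scale for the pair in place of -1.24 for Ifit3 alone.

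Isg15 is a ubiquitin-like protein that is joined to other proteins, and Usp18 is the protease that removes it and also holds back signalling at Ifnar2. Isg15 (chromosome 4, 156199424 to 156200818, minus strand) was the least counted of the 10 genes, with 101, 68, 251 and 265 UMIs in the 4 libraries or 3.91, 1.71, 6.07 and 3.97 CPM. Usp18 (chromosome 6, 121245906 to 121270917, plus strand) had 4.49, 1.84, 7.69 and 4.79 CPM. In both, young sham and aged I/R were indistinguishable by counting error. Usp18 overlaps a transcript on the other strand, Gm44148, over 15715 bases, and the strand setting of the counting is not given in the sources used here, so the reads of these 2 genes cannot be told apart with certainty.

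Irf7 is the transcription factor that amplifies the production of type I interferon. It lies on chromosome 7 (141262706 to 141266481, minus strand), where its 3′ end overlaps Phrf1 on the other strand by 45 bases. Irf7 had 9.75, 5.12, 21.2 and 10.4 CPM. Its aged sham level was 2.17-fold that of young sham, and young sham and aged I/R again overlapped.

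The antiviral effectors Rsad2 and Oasl2 and the tether Bst2 formed a second pattern, in which young sham exceeded aged I/R. Rsad2 (viperin, chromosome 12, 26442746 to 26456452, minus strand), an enzyme that makes a chain-terminating nucleotide, had 40.8, 23.8, 59.0 and 30.7 CPM. Oasl2 (chromosome 5, 114896936 to 114912234, plus strand), of the oligoadenylate synthetase family, had 21.5, 8.82, 32.4 and 16.2 CPM. Bst2 (tetherin, chromosome 8, 71534255 to 71537456, minus strand), which holds budding virus at the cell surface, had 17.8, 9.68, 39.0 and 13.9 CPM. In these 3 genes all neighbours in the order aged sham, young sham, aged I/R, young I/R stood apart by their counting intervals.

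Ifi27l2a is a small membrane protein gene of the ISG12 family. It lies on chromosome 12 (103442167 to 103443680, minus strand) and had 34.3, 24.7, 65.4 and 35.8 CPM. Young sham and aged I/R overlapped, and the distance between the 2 young libraries was the smallest among the 10 genes on the ratio scale.

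In young hearts all 10 genes had fewer CPM under I/R than under sham. The log2 ratio (I/R over sham) was -1.29 for Usp18 (interval -1.73 to -0.85), -1.28 for Oasl2 (-1.48 to -1.09), -1.24 for Ifit3 (-1.63 to -0.86) and -0.48 for Ifi27l2a (-0.61 to -0.34), with a median of -1.15 over the 10 genes. The sum was 1.81-fold lower. At least 2-fold lower were 6 of the 10 genes (Ifit1, Ifit2, Ifit3, Isg15, Oasl2 and Usp18), beside 27% of 15465 genes with at least 20 UMIs over the 2 libraries. A log2 ratio below 0 was found for 76.4% of these genes, whose median was -0.51. With gene-wise scaling the median of the 10 genes was -0.68 and none of them was 2-fold lower, beside 2047 of 15465 genes. Ifi27l2a then came to -0.01 with an interval that included 0.

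In aged hearts the direction was the same on a different background. The log2 ratio (I/R over sham) was -1.49 for Bst2 (interval -1.61 to -1.38), -1.02 for Irf7 (-1.17 to -0.88), -1.002 for Oasl2 (-1.12 to -0.89), -0.53 for Ifit1 (-0.72 to -0.33) and -0.34 for Ifit2 (-0.48 to -0.20). The median of the 10 genes was -0.88 where that of 16761 genes was 0.09, and the sum was 1.89-fold lower. Bst2, Irf7 and Oasl2 were the 3 of 10 at least 2-fold lower, beside 3.02% of all genes, and a ratio below 0 was found for 10 of 10 beside 42.8%. At a fold of 1.5 they were 8 of 10 beside 9.71%. At least 2-fold higher were 0 of the 10 genes and 5.65% of all genes. Gene-wise scaling moved the median of the 10 to -0.98.

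All 10 genes were lower after I/R at both ages, as were 30.6% of 17699 genes, and with gene-wise scaling again 10 of 10 beside 23.9%. The difference of the log2 ratios, aged minus young, was 0.78 for Ifit2 (counting interval 0.50 to 1.06), 0.65 for Ifit1 (0.23 to 1.06), -0.62 for Bst2 (-0.84 to -0.39) and -0.39 for Ifi27l2a (-0.55 to -0.24). The interval lay above 0 for 5 genes (Ifit1, Ifit2, Isg15, Oasl2 and Usp18), below 0 for 3 (Ifi27l2a, Rsad2 and Bst2) and included 0 for Ifit3 and Irf7. For the sum of the 10 genes the difference was -0.06 (-0.14 to 0.01), and with gene-wise scaling -0.62 (-0.70 to -0.55). With gene-wise scaling, which adds -0.56 to each difference, the interval lay above 0 for 0 genes and below 0 for 5, so that the split between the genes holds only on the scale of total UMIs, whereas their order does not depend on the scaling.

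Between the sham libraries all 10 genes were higher in the aged heart. The log2 ratio (aged over young) was 1.26 for Ifit3 (interval 0.998 to 1.54), 1.13 for Bst2 (0.98 to 1.29), 1.12 for Irf7 (0.91 to 1.33) and 0.93 for Ifi27l2a (0.82 to 1.04), and the lowest was 0.50 for Ifit2 (0.31 to 0.69). The median was 0.80 where that of 15875 genes was -0.14, and the sum was 1.74-fold higher. Ifit3, Bst2 and Irf7 were at least 2-fold higher, 3 of 10 beside 3.48% of all genes, and a ratio above 0 was found for 10 of 10 beside 38.6%. At a fold of 1.5 they were 8 of 10 beside 8.99%. Gene-wise scaling moved the median to 0.94 and left all 10 intervals above 0.

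Between the I/R libraries the 10 genes were again higher in the aged heart, with log2 ratios of 1.60 for Ifit3 (interval 1.28 to 1.94), 1.46 for Ifit1 (1.15 to 1.79), 1.38 for Usp18 (1.01 to 1.77), 0.52 for Bst2 (0.34 to 0.69) and 0.37 for Rsad2 (0.26 to 0.48). At least 2-fold higher were 6 of 10 (Ifit1, Ifit2, Ifit3, Isg15, Irf7 and Usp18), beside 21.3% of 16491 genes, whose median was 0.47. The median of the 10 was 1.12, and 78.3% of all genes had a ratio above 0. With gene-wise scaling the median was 0.70, Rsad2 came to -0.05 and 2 genes stayed 2-fold higher, beside 1758 of 16491 genes. Bst2 then came to 0.10 (interval -0.07 to 0.28), and the intervals of both Bst2 and Rsad2 included 0. Higher in aged than in young under both conditions were 10 of the 10 genes and 25% of all genes, and with gene-wise scaling 9 of the 10 genes and 19.6% of all genes. The 4 comparisons share libraries in pairs, so a high aged sham library or a low young I/R library enters 2 of them.

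**Figure D2:**
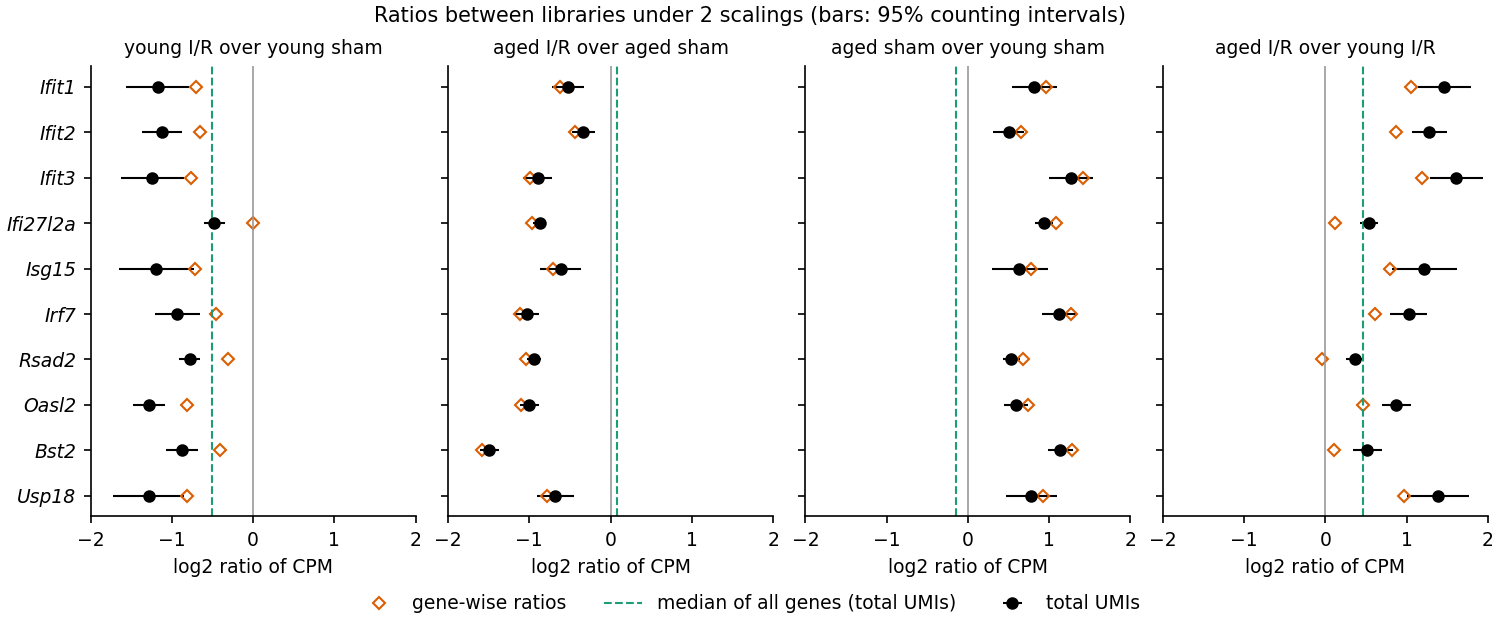
Log2 ratios of CPM for the 10 genes in the 4 comparisons, with 95% counting intervals (black, total UMIs), the same ratios under gene-wise scaling (open diamonds) and the median of all genes with total UMIs (dashed line). In the comparisons of I/R with sham in aged hearts and of aged with young sham, all 10 points lie on the far side of 0 from the median of all genes (0.09 and -0.14), whereas in the other 2 comparisons that median lies on the same side as the 10 genes.

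The ligands of the pathway were close to undetected. Of 21 interferon genes 13 had no UMI in any library, Ifnb1 and the type III genes Ifnl2 and Ifnl3 among them, and the other 8 had 20 UMIs in all. Counts over the list were 3, 2, 5 and 10 UMIs. With 3 counts taken as the upper limit for a count of 0, up to 0.116, 0.0756, 0.0725 and 0.0449 CPM remain possible in these libraries. Ifng, the type II interferon, had 3, 0, 1 and 2 UMIs. A difference in ligand RNA between the conditions was not detectable at this depth.

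Receptors and signal transducers were measured with more counts, and only some shared the order of the 10 genes. Of those named here, Ifngr1, Il10rb, Stat2 and Irf9 were highest in aged sham and lowest in young I/R. For Ifngr1 the young libraries did not differ beyond counting error (log2 ratio -0.03, interval -0.14 to 0.09), and gene-wise scaling turned this ratio to 0.44. For Irf9 the sham libraries did not differ beyond counting error. The type I receptor chain Ifnar1 had 33.8, 16.5, 20.8 and 34.4 CPM, with I/R over sham log2 ratios of -1.03 in young and 0.73 in aged hearts. Its partner Ifnar2 had 31.0, 24.6, 33.0 and 33.7 CPM. The interferon gamma receptor chains Ifngr1 and Ifngr2 had 38.9, 38.2, 55.4 and 46.5 CPM and 81.8, 51.0, 64.4 and 59.3 CPM. The type III chain Ifnlr1 had 2.67, 2.02, 2.59 and 2.86 CPM and Il10rb, which it shares with other cytokine receptors, 62.3, 33.6, 68.4 and 50.6 CPM. Among the 6 receptor genes, 1 was at least 2-fold lower after I/R in young hearts (27% of all genes) and 0 in aged hearts (3.02%). With gene-wise scaling it was 0 at either age, beside 2047 of 15465 genes in young and 632 of 16761 in aged hearts.

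Stat2 had 48.6, 22.3, 55.6 and 35.3 CPM and Irf9 29.9, 15.7, 30.2 and 21.7 CPM. Both belong to the factor that binds the ISRE. The young I/R library was the lowest in both, as in the 10 genes. Aged sham exceeded young sham by log2 ratios of 0.20 (interval 0.10 to 0.30) and 0.01 (-0.12 to 0.15) only. After I/R in aged hearts both were lower, as the 10 genes were, with log2 ratios of -0.66 (-0.74 to -0.57) and -0.47 (-0.59 to -0.36). The kinase Tyk2 had 20.9, 9.40, 20.02 and 18.6 CPM, Jak1 121, 113, 116 and 132 CPM and Jak2 28.5, 32.9, 28.0 and 31.8 CPM.

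Across 172 further genes of the pathway the lists were split by role. After I/R in young hearts, 34 of 68 type I interferon effectors with at least 20 UMIs were at least 2-fold lower (27% of all genes) and 2 were 2-fold higher (3.26% of all genes), with a median log2 ratio of -1.01. Of 32 interferon gamma effectors 12 were 2-fold lower (median -0.92), and of 7 other interferon regulatory factors 4 (median -1.12). The sensors of nucleic acid and their adaptors had 1 of 14 (median -0.69), against -0.51 for all genes. With gene-wise scaling the genes 2-fold lower were 15 of the type I effectors, 8 of the interferon gamma effectors, 1 of the regulatory factors and 0 of the sensors, beside 2047 of 15465 genes in all. After I/R in aged hearts the same effector lists had 5 of 70 and 4 of 33 genes 2-fold lower (3.02% of all genes), with medians of -0.23 and -0.23 where the median of all genes was 0.09. The 10 genes, with a median of -0.88, stood lower than either list there. As the 10 genes and the lists were chosen with earlier results of these data known, this contrast is a description only.

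With age, 10 of 70 type I effectors and 8 of 32 interferon gamma effectors were at least 2-fold higher in aged than in young sham (3.48% of all genes), and 0 of both were 2-fold lower (7.21% of all genes), with medians of 0.24 and 0.43. Between the I/R libraries 40 of 70 and 22 of 32 were 2-fold higher (21.3% of all genes), with medians of 1.04 and 1.20. With gene-wise scaling these were 17 and 11, beside 1758 of 16491 genes in all. Among the 4 genes of ISG15 conjugation, the activating enzyme Uba7 had 32.4, 10.6, 41.3 and 22.4 CPM and Herc6, a ligase of mouse Isg15, 21.8, 6.25, 21.1 and 17.4 CPM. The conjugating enzyme Ube2l6 had 5.65, 4.03, 7.64 and 4.15 CPM and the ligase Trim25 34.4, 34.8, 39.5 and 31.8 CPM. Uba7 and Herc6 were lowest in young I/R, like Isg15 itself, and Trim25 was not. For Ube2l6 the I/R libraries overlapped, with a log2 ratio of aged over young of 0.04 (-0.25 to 0.33), which gene-wise scaling turned to -0.37.

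**Figure D3:**
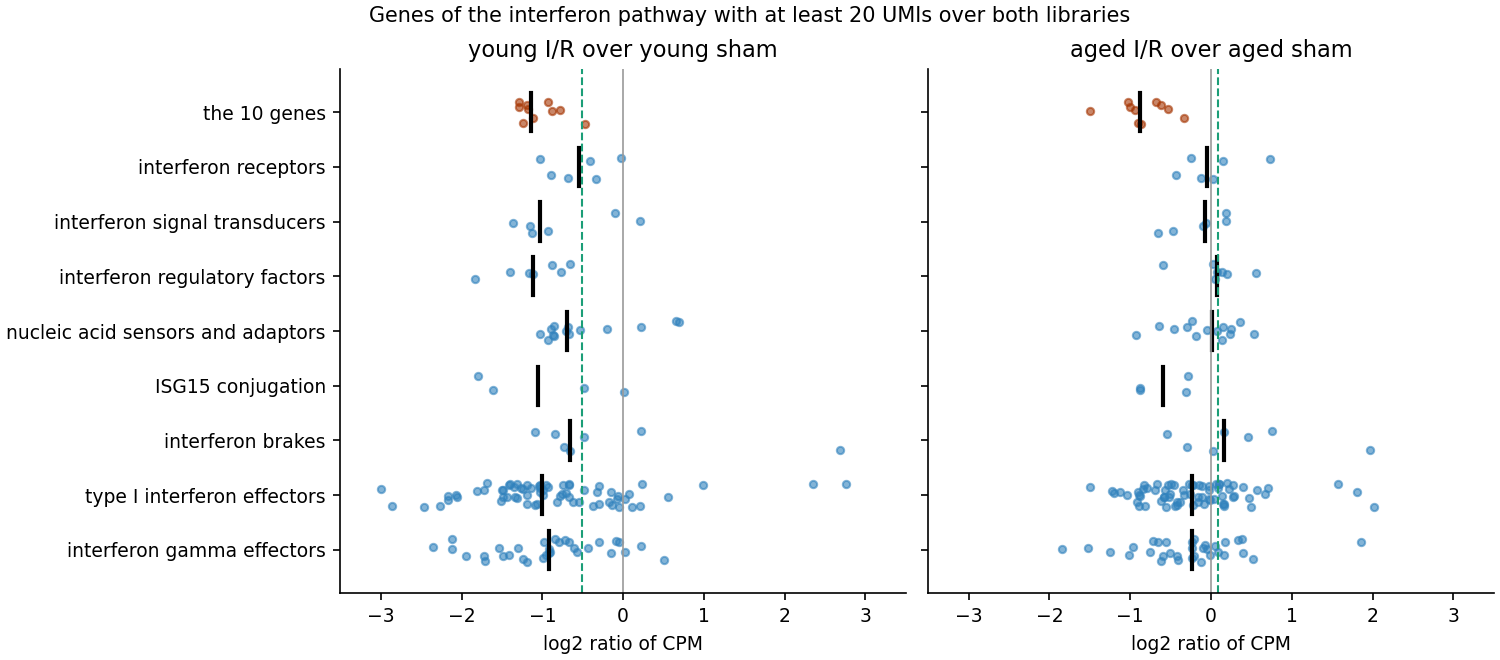
Log2 ratio of CPM, I/R over sham, for the 10 genes and for each other pathway gene with at least 20 UMIs over the 2 libraries and at least 1 in each, in young (left) and aged (right) hearts; the black bar is the list's median and the dashed line the median of all genes. The 10 genes have medians of -1.15 and -0.88, and the medians of the lists of receptors, transducers, regulatory factors and sensors lie near 0 in the aged hearts.

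The ends of the ranking over these lists show which relatives differed most. After I/R in young hearts the lowest were the Ifi200 family genes Ifi213 (log2 ratio -2.99, from 6.81 to 0.857 CPM) and Ifi208 (-2.47, from 3.21 to 0.580 CPM), both counted above among the type I effectors. They were followed by the GTPase Tgtp2 (-2.36, from 2.71 to 0.529 CPM). The highest were the Schlafen genes Slfn4 (2.76, from 1.47 to 9.98 CPM) and Slfn1 (2.35, from 1.01 to 5.12 CPM) and Socs3 (2.69, from 1.86 to 12.0 CPM), a brake on Jak signalling that other cytokines also induce. After I/R in aged hearts, Slfn1 (2.02) and Socs3 (1.97) were again the highest, followed by the guanylate-binding protein gene Gbp10 (1.85), and the chemokine genes Cxcl9 (-1.84) and Cxcl10 (-1.52) and the apolipoprotein gene Apol9b (-1.498) the lowest.

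Neutrophil markers were higher after I/R, like Slfn4, Slfn1 and Socs3 and unlike the 10 genes: the sum of the 12 neutrophil genes was 17.7, 116, 28.3 and 111 CPM, with Ly6g at 0 in at least 1 library, and their part in the ratios was not tested. In aged over young sham the highest were Ifit3b (2.05), Cxcl10 (1.81, from 0.503 to 1.77 CPM) and Apol9b (1.81), and the lowest Ifnar1 (-0.70), the kinase gene Tbk1 (-0.69) and Pnpt1 (-0.68). In aged over young I/R the highest were Gbp10 (3.32), the GTPase gene Gm4951 (3.15, from 1.26 to 11.2 CPM) and Gbp8 (2.90), and the lowest Gch1 (-0.50), Ticam1 (-0.27) and Ifitm2 (-0.24).

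Marker lists of cell types were set beside the 10 genes, and 6 of 12 (endothelial cells, fibroblasts, macrophages, T and NK cells, dendritic cells and mural cells) had their highest sum in aged sham and their lowest in young I/R. With gene-wise scaling 3 of 12 had it (T and NK cells, dendritic cells and Schwann cells). The sum of 18 fibroblast genes was 1803, 1458, 2406 and 1894 CPM and that of 12 genes of T and NK cells 3.06, 2.12, 8.49 and 6.49 CPM. The sum of 21 macrophage genes was 527, 401, 742 and 719 CPM, with a log2 ratio of -0.04 after I/R in aged hearts where the sum of the 10 genes had -0.92. All genes of these 3 lists were detected in every library, as were those of the cardiomyocyte and endothelial lists, the other labelled cell types. Their part in the levels of the 10 genes was not tested.

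Barcodes with at least 200 detected genes were clustered without the 10 genes and without the other pathway genes, to see in which cells they were counted. In each of 12 clusters the sum of the 10 genes, scaled by total UMIs, was highest in aged sham and lowest in young I/R. Gene-wise scaling was not applied by cluster. Its library-wide shift of 0.47 for the young libraries exceeds the log2 gap between them in clusters 5 and 12. Young sham and young I/R had 106 and 78.4 CPM in cluster 5 and 108 and 88.4 CPM in cluster 12. The intervals of the young libraries overlapped in clusters 9, 11 and 12. In cluster 11, with 9 UMIs in young sham and 16 in young I/R, the aged libraries overlapped as well. Pooled over libraries the sum ranged from 130 to 195 CPM, a 1.5-fold range. Over the same clusters the macrophage markers ranged from 472 to 1262 CPM and the fibroblast markers from 1554 to 3195 CPM. These markers were not kept out of the clustering and served to name clusters. Their wider range is thus built in and cannot be set against that of the 10 genes. Within single libraries the range was wider in young sham, from 85.9 CPM (interval 71.7 to 102) in cluster 9, led by Lgals4 and Mhrt, to 197 CPM (172 to 224) in the fibroblast-like cluster 7, and in aged sham it was from 224 to 311 CPM. Pooled, the sum was 173 CPM (interval 167 to 179) in the macrophage-like cluster, which had 9 of 21 markers at least 1.5-fold above the other barcodes, and 189 CPM (181 to 196) in the fibroblast-like cluster with 12 of 18. In the 2 erythroid-like clusters it was 176 CPM (168 to 183) in cluster 8, with 7 of 8 markers, and 170 CPM (163 to 176) in cluster 10, with 3 of 8. Mature red cells are not expected to hold much of these transcripts, but the name of cluster 10 rests on few markers.

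The median depth was 522 UMIs per barcode in the macrophage-like, 525 in the fibroblast-like and 509 and 459 in the erythroid-like clusters. As the sum of the 10 genes was no lower in erythroid-like cluster 8 than in the macrophage-like cluster, no cell type was assigned to them. The cardiomyocyte gene Ttn had at least 20419 CPM in every cluster, the erythroid-like clusters included. For single genes, pooled over libraries, between the highest and the lowest of the 11 clusters with over 10000 barcodes, the difference was 1.47-fold for Rsad2, 1.48-fold for Usp18, 1.79-fold for Ifit1 and 1.86-fold for Oasl2. Within the macrophage-like cluster the sum was 158, 87.5, 278 and 153 CPM, and within the fibroblast-like cluster 197, 91.6, 311 and 155 CPM.

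**Figure D4:**
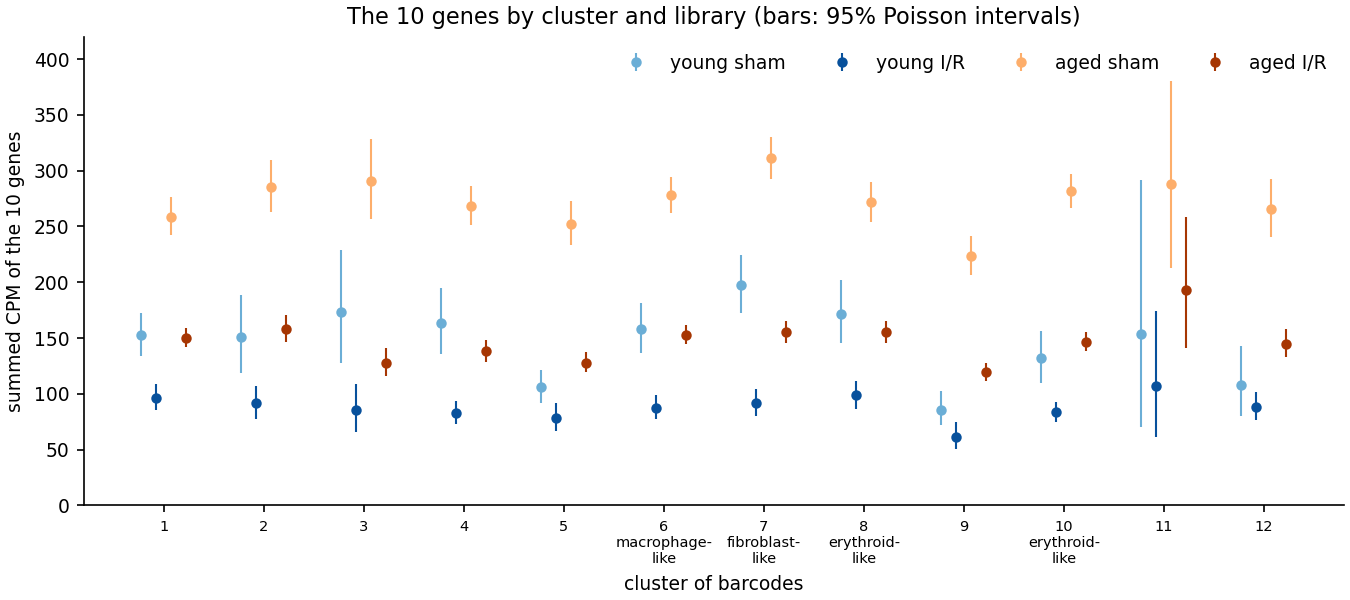
Summed CPM of the 10 genes in each cluster of barcodes and library, with 95% Poisson intervals. The aged sham points lie between 224 and 311 CPM and the young I/R points between 61.7 and 107 CPM, in named and unnamed clusters alike.

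Cells that respond to interferon usually carry several of these transcripts together, so barcodes were counted by the number of the 10 genes they held. In a window of 300 to 599 UMIs per barcode, 5.42% of young sham (interval 5.14% to 5.70%), 3.54% of young I/R (3.40% to 3.68%), 10.8% of aged sham (10.6% to 11.1%) and 6.67% of aged I/R barcodes (6.40% to 6.94%) had a UMI of at least 1 of the 10 genes. Thinned to 200 UMIs, with 25914, 4608, 4424 and 0 shallower barcodes left out, the shares were 3.10%, 1.72%, 5.31% and 2.84%. The share was highest in aged sham and lowest in young I/R both ways. Young sham stood below aged I/R in the window but above it when thinned. Within the window the median depth still differed, at 372, 407, 415 and 493 UMIs.

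The window held 25576, 69616, 65525 and 33012 barcodes. At least 2 of the 10 genes were found in 41, 33, 427 and 59 of them (0.160%, 0.0474%, 0.652% and 0.179%), and at least 3 in 1, 0, 20 and 0. For each gene, the share of barcodes with another of the 10 genes was compared between barcodes with and without it. In young sham, young I/R and aged I/R the share without the gene lay inside the interval of the share with it for all 10 genes. In young sham the share with the gene was still the higher for each gene, but the intervals rest on only 39 (Isg15) to 368 (Rsad2) barcodes. In young I/R and aged I/R it was higher for some genes and lower for others. In aged sham, with 177 (Isg15) to 1826 (Ifi27l2a) barcodes, the share without the gene lay below that interval for 5 genes and inside it for the other 5. There Isg15-bearing barcodes had another of the 10 genes in 16.4% (interval 11.3% to 22.7%, 177 barcodes) and barcodes without Isg15 in 10.6%, and for Oasl2 the values were 12.9% (10.8% to 15.2%) and 9.56%. The highest number in any barcode of the window was 4 of the 10 genes, in aged sham. Over all barcodes, aged sham had 29 with at least 3 of the genes and up to 6 in 1 barcode, and aged I/R had 11 with at least 3 and up to 4.

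The genes most like the sum of the 10 in pattern were ranked by the root mean square distance of centred log2 CPM over the 4 libraries, among 13191 other genes with at least 200 UMIs in all. They were AI854703 (distance 0.03), Trim59 (0.06), Aspg (0.08), Gm14207 (0.08) and the chemokine gene Cx3cl1 (0.09), none of which is in the pathway lists. Cx3cl1 had 4.26, 2.50, 6.60 and 3.79 CPM. The first 4 had only 0.706 to 2.64 CPM, so counting error is large beside such distances and their rank is loose. Of the 10 genes, each itself a part of the sum, Ifi27l2a was closest to it (0.14) and Ifit3 farthest (0.36). Among the other genes 24 were closer than Ifi27l2a and 927 lay within the distance of Ifit3. Points of such a distance share the 4 libraries and their depth, and it is a description.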

How the data were processed

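Left ventricles were profiled on the 10× Chromium 3′ system, and the authors deposited Cell Ranger 6.0.2 output on mm10 (per the labels) as raw UMI counts. Strand setting and annotation release were not given in the sources used here. Counts were summed per library over all deposited barcodes and divided by total UMIs (CPM). Intervals (95%) were exact Poisson for sums, exact binomial (Clopper-Pearson) for shares and exact conditional for ratios, and cover counting error only; the interval of a difference of ratios was from a normal approximation to log counts. A gene entered a background with at least 20 UMIs over the 2 libraries, and a call was a fold of 2. There was 1 library per group, hence no test. Per comparison, the 3 highest and 3 lowest pathway genes with at least 50 UMIs are named, besides the 10 genes, ligands, receptors, transducers (1 is not reported here), the ISG15 conjugation genes and the 5 genes most alike in pattern. Of the listed pathway genes those missing from the count table were left out. The 10 genes, lists and comparisons were chosen with earlier results of these data known. Clusters (scanpy 1.11.5, 2000 variable genes, 10 components, 20 neighbours, Leiden resolution 1) were named from at least 3 markers at 1.5-fold, a rule set after clusters were seen, and no doublet caller was run. Positions are from GENCODE vM21 on GRCm38. Ratios, their intervals and 2-fold calls were checked on simulated counts with the sizes of the young libraries, and the other steps were not. Python 3.11.15, numpy 2.4.6 and scipy 1.17.1 were used. Alternatives were gene-wise scaling (13424 genes), totals without Gm42418, Malat1 and 13 mitochondrial genes, barcodes with at least 200 genes, the 25000 deepest barcodes, a fold of 1.5, other background filters, Leiden resolution 2, and all or thinned barcodes.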

Additional observations from a re-analysis of the deposited data

Results flagged for a closer look

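For 4 of the named genes, the counting intervals of I/R over sham in young and in aged hearts lay on opposite sides of 0. This held under both scalings. For Gm4951 in aged hearts the interval was 0.09 to 0.45 and the gene-wise shift -0.09, so it was then barely clear of 0. The difference was not tested, since each ratio rests on 1 library per condition. The median of all genes was -0.51 in young and 0.09 in aged hearts. How many of all genes had opposite signs was not counted. For Ifnar1, a chain of the type I interferon receptor, the log2 ratio was -1.03 in young and 0.73 in aged hearts, a difference (aged minus young) of 1.76. For Tbk1, a kinase downstream of nucleic acid sensors, it was -0.68 and 0.53, a difference of 1.20. For Gm4951, an interferon-inducible GTPase gene, it was -2.27 and 0.27, a difference of 2.54. Ifitm2, a membrane protein gene, went the other way, with 0.56 and -0.51 and a difference of -1.08. None of the 10 genes was flagged, as all were lower after I/R at both ages. Tbk1, Gm4951 and Ifitm2 were named because they stood at an end of a ranking by aged over young, and such ratios enter this difference. Other named genes also had opposite signs but were not flagged. Among them was Pnpt1 (-0.67 and 0.66), whose young interval included 0 with gene-wise scaling. The flag covered only named genes. Outside the named genes, Irf2 (-1.16 and 0.56), Irf3 (-1.12 and 0.20) and Eif2ak2 (-1.32 and 0.47), among others, also had opposite signs.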

How the results depend on the processing

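The depth and the lack of replicates set the limits: with 1 library per condition no replicate could be left out, and the spread between animals or preparations was not measured. No paired analysis was possible because each group has 1 library and no test was made. The sum of the 10 genes kept its direction in the 4 comparisons under all settings tried. Between the young libraries its ratio (I/R to sham, log2) came to -0.39 with gene-wise scaling, -0.71 without Gm42418, Malat1 and mitochondrial genes, -0.69 in barcodes with at least 200 genes and -0.71 in the 25000 deepest barcodes, against -0.86. For aged I/R over aged sham it was -1.01 with gene-wise scaling and -1.01 without these abundant genes. For aged over young sham it was 0.95, 0.87, 0.96 and 0.95 under the same 4 settings, and for aged over young I/R 0.32 with gene-wise scaling and 0.58 without the abundant genes. Of the 10 genes, those at least 2-fold lower in young I/R numbered 0 with gene-wise scaling (2047 of 15465 genes in all), against 6 (27%). They numbered 3 in the deepest barcodes, where no share over all genes was computed. At a fold of 1.5, 8 genes were lower in aged I/R than in aged sham, beside 9.71% of all genes. Likewise 8 were higher in aged than in young sham, beside 8.99%. At a fold of 2 they were 3 each, beside 3.02% and 3.48%. At least 2-fold higher in aged than in young sham were 5 genes in the deepest barcodes, against 3 (3.48% of all genes). Again no share over all genes was computed for the deepest barcodes. At least 2-fold higher in aged than in young I/R were 2 with gene-wise scaling (1758 of 16491 genes in all), against 6 (21.3%). Of 40 ratios of single genes, all kept their sign under 3 settings and 39 with gene-wise scaling, where Rsad2 in aged over young I/R changed sign. The share of all genes past 2-fold moved by over 1.5 times in 11 of 16 settings of the filter. With Leiden resolution 2 and total UMIs, the sum was highest in aged sham and lowest in young I/R in all 27 clusters with at least 100 barcodes per library. Gene-wise scaling was not applied by cluster. The causes of these shifts were not tested.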
